A study of Homo sapiens with 12 samples.

Results

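The stathmins are a family of small proteins encoded by 4 human genes, STMN1, STMN2, STMN3 and STMN4. Their transcripts were followed in IMR32, a long-established neuroblastoma line of human origin in which MYCN, the gene of a MYC-family transcription factor, is amplified. All 4 genes were found by symbol among the 27514 genes listed, and all 4 were among the 12680 genes with a mean of at least 1 CPM (the reads of a gene scaled to all reads of its library) over the 12 samples. The family was chosen because STMN2 and STMN4 were among the genes that rose most in these same samples. Changes against the control are therefore given as a description, with no p-value for a stathmin gene. For STMN2 and STMN4 no p-value is given in any comparison.

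RNA was sequenced from 4 groups of 3 samples. The control received an siRNA labelled siCTR (siCtrl here). The next group received an siRNA against MYCN, labelled siMYCN_2, and the next an siRNA against HAND2, labelled siHAND2_3. HAND2 is a transcription factor of the sympathetic nervous system. The last group, labelled siM2+siH2_3, received both and is termed the combined knockdown. All groups, the control included, were electroporated with the Nucleofector and harvested after 72 h. Each target has 1 siRNA label in 1 cell line. The labels do not say whether samples of a group came from separate cultures, so the spread between them may be technical. In bulk RNA, a change in the share of cells that express a gene and a change in RNA per cell cannot be told apart.

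Stathmins bind tubulin and destabilise microtubules. STMN1, also called Op18, is the cytosolic and most widely expressed member, and its tubulin binding is switched off by phosphorylation of its serines during mitosis. STMN2 (SCG10), STMN3 (SCLIP) and STMN4 (RB3) are enriched in neurons and carry an added N-terminal region that is palmitoylated and places them on Golgi and vesicle membranes. STMN2 is known for its role in the growth and repair of axons.

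Depth, estimated from the worth of 1 read, was 31.6 to 64.2 M reads per sample, so that 3 reads correspond to 0.0468 to 0.0949 CPM. MYCN averaged 1009 CPM in siCtrl, and 67.5% of that level with siMYCN, 84.1% with siHAND2 and 47.7% in the combined knockdown. HAND2 averaged 239 CPM in siCtrl, 136% of that with siMYCN, 26.0% with siHAND2 and 30.7% in the combined knockdown. Both targets overlap an antisense gene (MYCNOS and HAND2-AS1), and use of strand in counting is not given in the sources used here. Among markers of noradrenergic neuroblastoma, means in siCtrl, siMYCN, siHAND2 and the combined knockdown were 99.5, 128, 171 and 129 CPM for CHGA and 32.7, 46.0, 28.2 and 31.0 CPM for GATA3. For PHOX2A they were 68.5, 115.5, 16.0 and 27.1 CPM, and for DBH 2.65, 7.99, 0.929 and 0.942 CPM. TH, the first enzyme of catecholamine synthesis, was at most 2.06 CPM in any sample. The 5 mesenchymal markers summed to 7.20 to 9.14 CPM in siCtrl, 6.31 to 7.36 with siMYCN, 1.29 to 1.99 with siHAND2 and 0.976 to 1.28 in the combined knockdown. The 5 Schwann or glial markers summed to 1.499 to 1.68 CPM in siCtrl, 2.74 to 3.29 with siMYCN, 2.03 to 2.33 with siHAND2 and 2.41 to 3.21 in the combined knockdown, so that every knockdown sample was above every siCtrl sample. The 3 blood markers summed to at most 0.104 CPM, with CD3E and HBB listed at 0. The part of these markers in the stathmin values was not tested.

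The share of each library that fell in the listed genes differed between groups. It was 65.1% ± 0.74 (SD, n = 3) in siCtrl, 62.4% ± 0.98 with siMYCN, 59.4% ± 2.39 with siHAND2 and 51.4% ± 7.04 in the combined knockdown. The 3 combined samples stood at 58.4%, 51.4% and 44.3% for replicates 1, 2 and 3. The median change of all tested genes against siCtrl was 0.006 with siMYCN, -0.14 with siHAND2 and -0.28 in the combined knockdown on the log2(CPM + 1) scale. Values are therefore given as deposited and, where it alters what is seen, also after median ratio scaling. This divides each sample by a factor (0.729 to 1.10) that brings the median gene to one level. The same medians after scaling were 0.014, 0.012 and 0.045.

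STMN2 lies on chromosome 8 at 80523049 to 80578411 on the plus strand (hg19, as are all positions of genes here), and its canonical transcript has 5 exons. It was low in control cells and, on the log2(CPM + 1) scale, had the largest rise of the 12680 genes tested in 2 of the 3 knockdowns. Its CPM in replicates 1, 2 and 3 was 4.08, 2.78 and 5.14 in siCtrl. It was 82.0, 78.2 and 83.2 CPM with siMYCN, and 23.7, 25.2 and 31.0 CPM with siHAND2. In the combined knockdown it was 198, 151 and 129 CPM. The 4 groups did not overlap, and stood in the order siCtrl, siHAND2, siMYCN, combined. The control values rest on an estimated 122 to 295 reads per sample, and those of the combined knockdown on 5280 to 12700.

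Group means of STMN2 were 4.00 ± 1.18 CPM in siCtrl, 81.1 ± 2.58 with siMYCN, 26.6 ± 3.84 with siHAND2 and 159 ± 35.3 in the combined knockdown (SD, n = 3 each). The ratio of means to siCtrl was 20.3 with siMYCN, with ratios of same-numbered samples from 16.2 to 28.1. With siHAND2 it was 6.66 (5.82 to 9.05), and in the combined knockdown 39.8 (25.0 to 54.4). On the log2(CPM + 1) scale, which understates changes of genes with low values, the fitted rise was 4.07 (SE 0.15) with siMYCN, 2.48 with siHAND2 and 5.01 in the combined knockdown. Among the rises of all tested genes STMN2 ranked 1, 13 and 1 in these contrasts, and 1, 26 and 2 with a pseudocount of 0.1 in place of 1.

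STMN4, a neuronal member that is expressed in brain, lies on chromosome 8 at 27092840 to 27115957 on the minus strand, with 7 exons in its canonical transcript. Its control level was close to the filter of 1 CPM. It measured 1.38, 1.26 and 1.27 CPM in siCtrl replicates 1, 2 and 3, an estimated 50 to 73 reads. It measured 15.8, 12.4 and 14.5 CPM with siMYCN, and 12.8, 13.9 and 15.0 CPM with siHAND2. In the combined knockdown it measured 48.0, 35.9 and 27.5 CPM. The siMYCN and siHAND2 samples overlapped, every one of them stood above siCtrl, and every combined sample stood above both single knockdowns.

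Means of STMN4 were 1.30 ± 0.066 CPM in siCtrl, 14.2 ± 1.71 with siMYCN, 13.9 ± 1.09 with siHAND2 and 37.1 ± 10.3 in the combined knockdown (SD, n = 3 each). Ratios of means to siCtrl were 10.9 with siMYCN (9.90 to 11.5 by replicate number), 10.7 with siHAND2 (9.31 to 11.8) and 28.5 in the combined knockdown (21.6 to 34.9). The fitted rises were 2.72 (SE 0.14), 2.69 and 4.01 on the log2(CPM + 1) scale, at ranks 2, 5 and 3 of 12680 (3, 8 and 5 with a pseudocount of 0.1). STMN2 and STMN4 thus differed in how the single knockdowns compared. The level of STMN2 with siMYCN was 3.05 times that with siHAND2, while for STMN4 the ratio was 1.02.

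**Figure D1:**
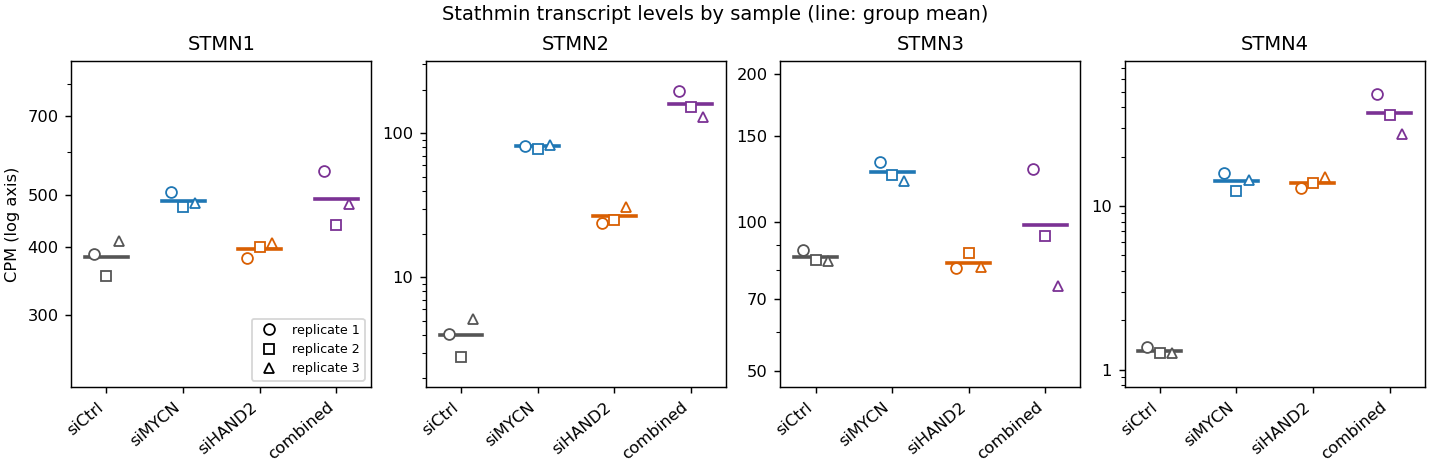
CPM (log axis, with its own range in each panel) of the 4 stathmin genes in each of the 12 samples, where marker shape gives the replicate number and the line is the group mean. STMN2 and STMN4 separate the knockdowns from siCtrl without overlap, whereas STMN3 in the combined knockdown spans 74.2 to 128 CPM.

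STMN3, a neuronal member that acts in the branching of neurites, lies on chromosome 20 at 62271058 to 62284964 on the minus strand. It was already well expressed in control cells. In siCtrl it measured 87.9, 83.7 and 83.4 CPM in replicates 1, 2 and 3. With siMYCN it measured 133, 125 and 121 CPM, and with siHAND2 80.7, 86.5 and 81.0 CPM. All siMYCN samples were above all siCtrl and all siHAND2 samples, and the latter groups overlapped. In the combined knockdown STMN3 measured 128, 93.8 and 74.2 CPM, a range that overlapped each of the other groups.

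The mean of STMN3 was 85.0 ± 2.51 CPM in siCtrl, 126 ± 5.85 with siMYCN, 82.8 ± 3.26 with siHAND2 and 98.8 ± 27.4 in the combined knockdown (SD, n = 3 each). Its ratio to siCtrl was 1.48 with siMYCN (1.45 to 1.51), 0.973 with siHAND2 and 1.16 in the combined knockdown (0.889 to 1.46). The fitted log2 changes were 0.56 (SE 0.14), -0.04 and 0.18. STMN3 was higher with siMYCN than with siHAND2, by 0.60 (SE 0.14) on the log2(CPM + 1) scale (adjusted p = 0.0013, limma), in 3 of 3 samples. Over the other settings tried this call held, with adjusted p from 1.3e-05 to 0.039 in limma.

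STMN1 lies on chromosome 1 at 26210677 to 26233369 on the minus strand. Its row overlaps the microRNA gene MIR3917, listed at 0 in every sample, and annotated processed pseudogenes on the other strand. The row of MIR5096, also listed at 0, overlaps it only because that row spans 16197644 to 235881414 of chromosome 1. No MIR5096 was annotated at STMN1. STMN1 had the highest CPM of the 4 members in every sample. It measured 389, 353 and 409.8 CPM in siCtrl replicates 1, 2 and 3, and 505, 474 and 482 CPM with siMYCN. With siHAND2 it measured 381, 401 and 407 CPM, and in the combined knockdown 552, 440.4 and 481 CPM. Every siMYCN and every combined sample stood above every siCtrl sample, and the siHAND2 samples lay within the siCtrl range.

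Means of STMN1 were 384 ± 28.7 CPM in siCtrl, 487 ± 16.4 with siMYCN, 396 ± 13.3 with siHAND2 and 491 ± 56.6 in the combined knockdown (SD, n = 3 each). The ratios to siCtrl were 1.27 with siMYCN (1.18 to 1.34), 1.03 with siHAND2 (0.981 to 1.13) and 1.28 in the combined knockdown (1.17 to 1.42). The fitted log2 changes were 0.35 (SE 0.12), 0.05 and 0.35. STMN1 was higher with siMYCN than with siHAND2 by 0.30 (SE 0.12), with an adjusted p of 0.047 in limma, and higher in 3 of 3 samples. This call was lost after median ratio scaling (0.15, adjusted p = 0.20, or 0.093 with the block of replicate numbers added, limma). Without a filter it was lost too (adjusted p = 0.061, limma). It was also lost in 9 of the 12 fits that left out 1 sample, with adjusted p up to 0.155 in limma, and held only in the 3 fits that left out a combined sample.

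The DNA just upstream of a transcription start is where many regulators bind. Proteins of the MYC family bind, with their partner MAX, the letters CACGTG, an E-box of the general form CANNTG, which HAND2 and its partners also use. The upstream stretches of STMN1 and STMN3 are shown since they differ in such letters, and those of STMN2 and STMN4 were not analysed here. Both come from RefSeq's promoter table for GRCh38.p14, are read 5′ to 3′ on the minus strand, and have each CANNTG in capitals. The STMN1 stretch is at chr1:25906464-25906669, covers 206 bases of 1 of 3 listed windows, and was matched exactly to chromosome 1 at 26232955 to 26233160 of GRCh37, where 3 of its bases lie in an annotated exon. The STMN3 stretch is at chr20:63652767-63653016, covers 250 bases, and was matched exactly to chromosome 20 at 62284120 to 62284369 of GRCh37, with no annotated exon in it.
STMN1: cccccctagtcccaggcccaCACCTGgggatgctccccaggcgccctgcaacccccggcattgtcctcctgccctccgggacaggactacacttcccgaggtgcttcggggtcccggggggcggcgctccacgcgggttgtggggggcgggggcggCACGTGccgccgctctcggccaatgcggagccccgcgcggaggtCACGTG
STMN3: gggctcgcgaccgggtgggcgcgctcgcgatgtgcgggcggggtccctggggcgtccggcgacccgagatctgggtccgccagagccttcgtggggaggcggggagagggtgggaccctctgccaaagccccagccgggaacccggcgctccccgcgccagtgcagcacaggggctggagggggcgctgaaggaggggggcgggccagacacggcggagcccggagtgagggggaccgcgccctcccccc

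G and C made up 75.2% of the STMN1 stretch. Counted upstream of the start, it holds CACCTG at 230 bases and the MYC-family E-box at 94 and at 50 bases. Another STMN1 window holds a single CATGTG at 17 bases upstream, and the last of the 3 holds no E-box. In the STMN3 stretch, of which 78% was G or C, no E-box was found. Both strands were searched, which for these palindromic letters gives the same places, and every MYC-family E-box is also counted as an E-box. Over the 250 upstream bases of 35116 listed windows, CACGTG was in 6.34%. The general form CANNTG was in 61.8% of them. These are matches of letters, and binding was not measured. STMN1, with the MYC-family E-box in 1 window, and STMN3, without it in the stretch shown, were both higher with siMYCN than in siCtrl. The part of these letters in the changes was not tested.

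Against siCtrl, 4 of 4 stathmin genes passed an adjusted p of 0.05 (termed called) with siMYCN, all of them higher, where 33.7% of all tested genes were called and 17.4% were called higher. With siHAND2, 2 of 4 were called higher, STMN2 and STMN4, where 42.7% of genes were called and 12.3% higher. In the combined knockdown 3 of 4 were called higher, STMN1, STMN2 and STMN4, where 67.4% of genes were called and 17.4% higher. Because the members were chosen on these changes, nothing is read from the shares. The members with all samples above all siCtrl samples numbered 4, 2 and 3, against 31.4%, 17.8% and 16.7% of all tested genes.

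These counts moved with the scaling. After median ratio scaling the samples of all 4 genes lay wholly above siCtrl in each of the 3 knockdowns, where 32.2%, 30.9% and 37.4% of genes did. The fitted changes in the combined knockdown became 0.71 for STMN1, 5.34 for STMN2, 0.53 for STMN3 and 4.31 for STMN4, and all 4 were called, where 37.7% of genes were called higher. With siHAND2 the change of STMN1 went from 0.05 to 0.21 and that of STMN3 from -0.04 to 0.12, and neither was called, where 25.9% of genes were called higher. STMN2 and STMN4 changed less with siHAND2, from 2.48 to 2.61 and from 2.69 to 2.79.

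**Figure D2:**
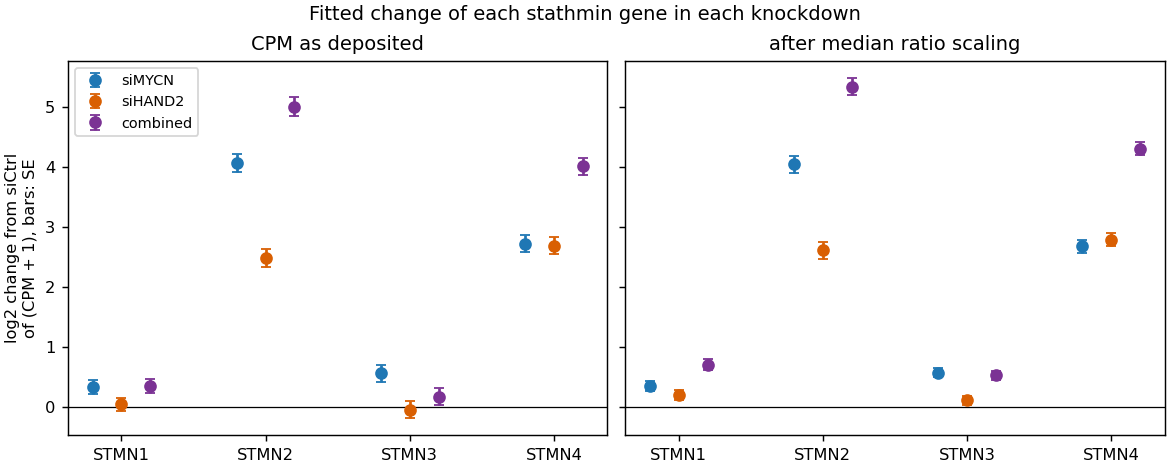
Fitted log2 change of CPM + 1 against siCtrl for each stathmin gene and knockdown, from CPM as deposited (left) and after median ratio scaling (right), with bars of 1 standard error. STMN2 with siMYCN stands at 4.07 and 4.05 on the respective scales, while STMN3 in the combined knockdown stands at 0.18 and 0.53.

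The combined knockdown was compared with each single knockdown. STMN2 in the combined samples was 1.96 times its mean with siMYCN and 5.98 times its mean with siHAND2, and fitted differences were 0.94 and 2.52 on the log2(CPM + 1) scale. The latter was the largest rise of the 12680 genes in that comparison. STMN4 was 2.61 times its mean with siMYCN and 2.67 times its mean with siHAND2, with fitted differences of 1.29 and 1.32. For both genes all 3 combined samples were above all samples of either single knockdown, which held for 9.47% of tested genes against siMYCN and 9.6% against siHAND2.

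STMN1 and STMN3 did not follow STMN2 and STMN4 in this step. STMN1 in the combined knockdown was at 1.01 times its mean with siMYCN (fitted difference 0.01, SE 0.12, adjusted p = 0.965, limma), and the groups overlapped. It was higher than with siHAND2 by 0.30 (adjusted p = 0.038, limma) in 3 of 3 samples. That call was lost with only the groups compared (adjusted p = 0.19, limma) and with no filter (adjusted p = 0.053). It was also lost in 8 of the 12 fits without 1 sample, with adjusted p of 0.051 to 0.134 in limma, and was kept without combined replicate 2, combined replicate 3, siCtrl replicate 2 or siCtrl replicate 3. STMN3 in the combined knockdown was lower than with siMYCN by 0.39 on the log2 scale (fitted -0.39, SE 0.14, adjusted p = 0.019, limma), although the highest combined sample lay within the siMYCN range. Compared with siHAND2 its difference of 0.22 did not pass the test (adjusted p = 0.21, limma).

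Several of these differences were smaller or larger on the other scale, beside the listed share of 44.3 to 58.4% in the combined samples. After median ratio scaling STMN1 was 557, 509 and 659.9 CPM in the combined samples. It was then higher than with siMYCN by 0.36 (adjusted p = 0.0036, limma) and higher than with siHAND2 by 0.50 (adjusted p = 3.6e-04, limma), where 30% and 26.1% of genes were called higher. STMN3 in the combined samples became 130, 108 and 102 CPM, and its difference from siMYCN became -0.04 (adjusted p = 0.68, limma). Its difference from siHAND2 became 0.42 (adjusted p = 3.9e-04, limma). As deposited, STMN2, STMN3 and STMN4 were each highest in combined replicate 1 and lowest in combined replicate 3, the libraries with the highest and lowest listed share. STMN1 was lowest in combined replicate 2.

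Single samples decided some STMN3 results. The difference of STMN3 between the combined knockdown and siMYCN was not called without siMYCN replicate 1 (adjusted p = 0.07), without combined replicate 2 (adjusted p = 0.057) or without combined replicate 3 (-0.20, adjusted p = 0.106), all from limma. Without combined replicate 3 STMN3 was called higher than siHAND2 (0.40, adjusted p = 0.0033, limma) and its change from siCtrl was 0.36 and called. Without combined replicate 1 the change from siCtrl was -0.03. The called rise of STMN1 with siMYCN against siCtrl was lost in 5 of the 12 fits that left out 1 sample (siCtrl replicates 1 and 2 and each siMYCN replicate), and its rise in the combined knockdown was lost without siCtrl replicate 2.

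Over these comparisons 3 of 4 members were called for the combined knockdown against siMYCN, with STMN2 and STMN4 higher and STMN3 lower, where 58.9% of genes were called, 8.92% higher and 50% lower. Against siHAND2 3 of 4 were called higher, STMN1, STMN2 and STMN4, where 40.3% of genes were called and 8.75% higher. Between siMYCN and siHAND2 3 of 4 were called higher with siMYCN, STMN1, STMN2 and STMN3, where 35% were called and 26.1% higher. STMN4 had a difference of 0.03 there. These comparisons share samples with those that chose the members, and with each other.

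Whether both siRNAs together gave the sum or the product of their separate changes was examined from group means. For STMN2 the sum of the single increases over siCtrl would give 104 CPM and the product of the single folds 540.1 CPM, beside 159 CPM measured. For STMN4 the corresponding levels were 26.8 and 152 CPM, beside 37.1 CPM measured. Both genes were thus above the sum and below the product in the mean. All 3 combined samples lay above the sum for each gene, and all lay below the product. After median ratio scaling STMN2 was at 184 CPM beside 98.0 and 555, and STMN4 at 42.5 CPM beside 26.0 and 156.

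For STMN1 the sum was 499 CPM and the product 503 CPM, beside 491 CPM measured. For STMN3 they were 124 and 123 CPM, beside 98.8 CPM measured. The sample ranges of both genes included these levels. On the rescaled values STMN1 was at 575 CPM beside 501 and 516, with all 3 samples above the sum and 2 of 3 above the product, and STMN3 at 113 CPM beside 123 and 126. The interaction term of the fit, which is 0 when log2 changes add up, was -1.54 (SE 0.22) for STMN2 and -1.40 (SE 0.20) for STMN4. It was -0.04 (SE 0.16, adjusted p = 0.89, limma) for STMN1 and -0.35 (SE 0.19, adjusted p = 0.29, limma) for STMN3. Of the 4 members 2 were called, STMN2 and STMN4, both lower, where 4.01% of all tested genes were called and 3.65% lower. The term is made from the same samples and rises that chose these members, so nothing is read from that count. After scaling the terms of STMN2 and STMN4 were -1.32 and -1.16. For STMN3 the term was called without combined replicate 1 (-0.55, adjusted p = 0.0083, limma).

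**Figure D3:**
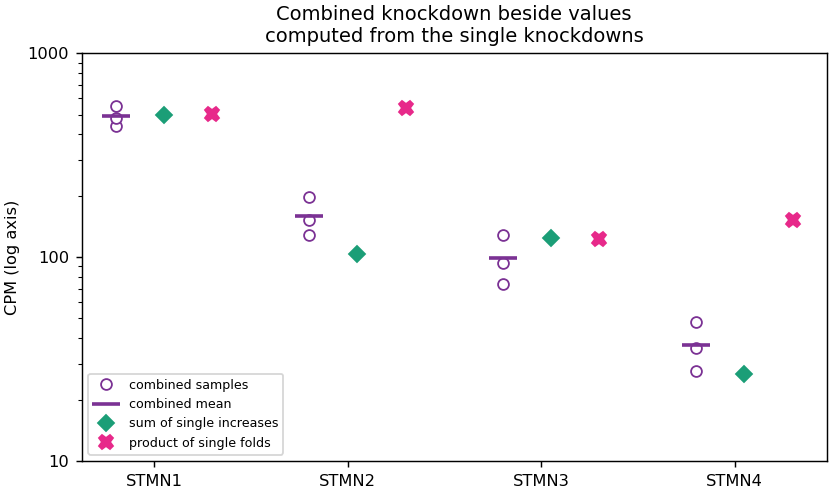
CPM (log axis) of each stathmin gene in the 3 combined knockdown samples (circles, with their mean as a line), beside the level from adding the single increases to siCtrl (diamond) and from multiplying the single folds (cross). The STMN2 and STMN4 samples lie between the diamond and the cross, whereas the STMN1 and STMN3 samples span both.

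Levels of different genes were compared per length of transcript. Per kb of canonical transcript (1443 bases for STMN1, 1903 for STMN2, 2248 for STMN3 and 2321 for STMN4), the 4 genes together came to 306 ± 20.6 CPM per kb in siCtrl. The total was 442 ± 15.0 with siMYCN, 331 ± 11.8 with siHAND2 and 484 ± 69.6 in the combined knockdown (SD, n = 3 each). STMN1 made up a mean of 86.8% of this total in siCtrl, 76.3% with siMYCN, 82.9% with siHAND2 and 70.5% in the combined knockdown. STMN2 made up 0.679%, 9.64%, 4.21% and 17.2% in the same order. STMN3 made up 12.4%, 12.7%, 11.1% and 8.99%, and STMN4 0.183%, 1.38%, 1.80% and 3.27%.

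The order of the members on this scale was STMN1, STMN3, STMN2, STMN4 in siCtrl, siMYCN and siHAND2. With siMYCN these neighbours were at 56.2 ± 2.60 CPM per kb for STMN3 and 42.6 ± 1.36 for STMN2 (SD, n = 3). In the combined knockdown STMN2 passed STMN3 and stood second, at 83.7 ± 18.5 beside 43.9 ± 12.2 CPM per kb. Scaling of a library does not alter these shares, but the assumed length does. With the length of all annotated exons merged, which is 6247 bases for STMN1 and 2042 for STMN2, STMN1 was at 66.8%, 47.6%, 58.7% and 39.6% in siCtrl, siMYCN, siHAND2 and the combined knockdown. STMN2 was then at 2.11%, 24.3%, 12.0% and 38.8%, and above STMN1 in combined replicates 1 (40.02% beside 36.5%) and 2 (39.8% beside 37.8%). With merged exons STMN3 was at 30.6%, 25.5%, 25.3% and 16.1% in the same group order, and STMN4 at 0.429%, 2.62%, 3.88% and 5.53%. The share of STMN3 was thus lower with siMYCN than in siCtrl on this length, and not on the canonical one. Transcript forms were not resolved in these values, so the share of each member depends on the length taken.

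**Figure D4:**
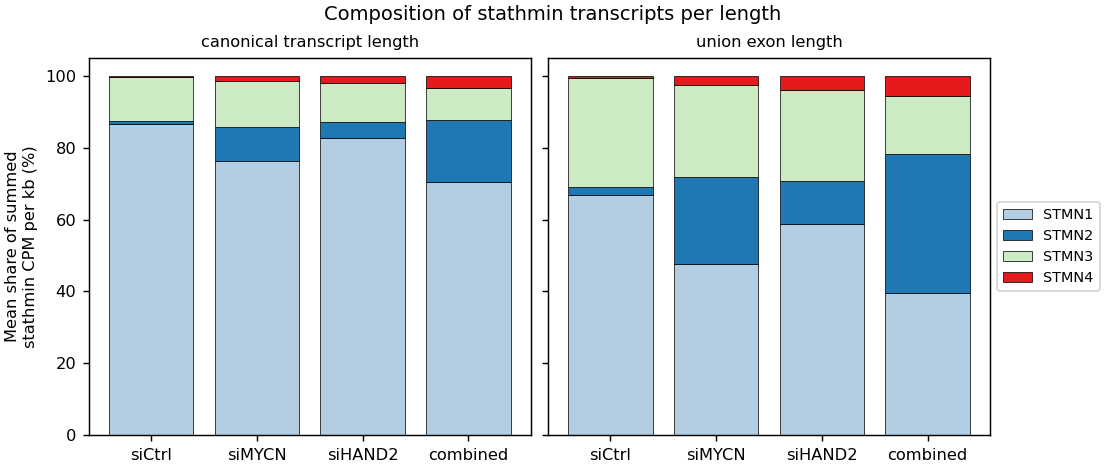
Mean share (%) of each stathmin gene in the summed stathmin CPM per kb of each group, with canonical transcript lengths (left) and merged exon lengths (right). The STMN2 segment grows from 0.679% in siCtrl to 17.2% in the combined knockdown on the left, and from 2.11% to 38.8% on the right.

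Across the 12 samples STMN2 and STMN4 were close to each other, with Pearson's r of log2(CPM + 1) of 0.953 as deposited and 0.957 after scaling. STMN1 and STMN2 had r of 0.846 and 0.902, and STMN3 and STMN4 had 0.349 and 0.732. These values describe 12 samples that fall into 4 groups and share a denominator within each library. Among 10188 genes with a mean of at least 5 CPM, the 3 genes nearest to STMN2 by this measure were PCDH17 (r = 0.991), a protocadherin, OPTN (0.990), the autophagy receptor optineurin, and TUBA1A (0.989), the main alpha tubulin of young neurons. TUBA1A averaged 844 CPM in siCtrl, 2333 with siMYCN, 1595 with siHAND2 and 2990 in the combined knockdown. Like STMN2, it stood higher with siMYCN than with siHAND2, though over a narrower range. The nearest genes were picked for their likeness to a member over these same samples, so a shared order follows from the choice.

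Nearest to STMN4 were P2RX3 (0.996), an ATP-gated ion channel of sensory neurons, SCN3A (0.992), a sodium channel, and SH2D3C (0.992), a signalling adaptor. P2RX3 averaged 2.76, 11.2, 11.9 and 22.9 CPM in siCtrl, siMYCN, siHAND2 and the combined knockdown. Its means with siMYCN and siHAND2 lay close together, as did those of STMN4, which again follows from how P2RX3 was picked. Nearest to STMN1 were CCNDBP1 (0.972), STARD3NL (0.957) and TSPAN31 (0.947), of which TSPAN31 overlaps CDK4 on the other strand. Nearest to STMN3 were VPS45 (0.984), ZNF428 (0.980) and PRDX5 (0.979), of which VPS45 and ZNF428 overlap other genes. PRDX5 averaged 64.0, 82.6, 60.2 and 68.5 CPM in the same group order.

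Genes that supply, modify or oppose stathmins were taken from lists of tubulins, kinases of stathmin serines, regulators and partners, other destabilisers, and microtubule stabilisers. From each list the 2 called genes of largest change in the combined knockdown are named. Being called there was part of that choice, so their adjusted p in the combined knockdown is a description and supports nothing. REST, a repressor of neuronal genes that is known to act on STMN2, fell in all 3 knockdowns. It measured 23.6, 26.4 and 17.7 CPM in siCtrl replicates 1, 2 and 3, and 10.3, 9.63 and 8.49 CPM with siMYCN. It measured 6.01, 6.56 and 4.71 CPM with siHAND2 and 3.23, 2.80 and 2.78 CPM in the combined knockdown. The 4 groups did not overlap and stood, from high to low, in the order siCtrl, siMYCN, siHAND2, combined. Changes of REST were -1.16 (adjusted p = 2.9e-07), -1.79 (7.9e-11) and -2.57 (2.2e-14) on the log2(CPM + 1) scale in limma. The part of REST in the STMN2 values was not tested.

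Among the 8 regulators and partners, all tested, 1 was called higher and 2 lower with siMYCN, 1 and 3 with siHAND2, and 0 and 6 in the combined knockdown. Their median log2 changes were -0.07, -0.22 and -1.004, beside 0.006, -0.14 and -0.28 over all genes. Of all tested genes, 17.4% were called higher and 16.3% lower with siMYCN, 12.3% and 30.4% with siHAND2, and 17.4% and 50.1% in the combined knockdown. TARDBP, whose protein keeps a cryptic exon out of the STMN2 transcript, was called lower in the combined knockdown (-0.74, adjusted p = 6.4e-05, limma), and stood at -0.10 with siMYCN and -0.15 with siHAND2. FOXM1, a mitotic transcription factor that has been tied to STMN1, was at -1.68 in the combined knockdown (adjusted p = 1.1e-11, limma), and its row overlaps RHNO1 on the other strand. E2F1, a transcription factor of the cell cycle that acts on STMN1, was at -1.27 there (adjusted p = 2.4e-10, limma). STMN1 was at 0.35 in the same comparison, and the part of these regulators in the stathmin values was not tested. CDKN1B (p27), which binds stathmin, was called higher with siMYCN (0.36, adjusted p = 0.025, limma) and stood at 0.06 in the combined knockdown. After median ratio scaling CDKN1B was called higher there too (0.42), and the list had 2 higher and 6 lower, where 37.7% and 33% of all genes were called.

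Of the 17 kinases, 16 were tested. With siMYCN 6 were called higher and 1 lower, with siHAND2 3 and 5, and in the combined knockdown 5 and 7. Of all tested genes, 17.4% were called higher and 16.3% lower with siMYCN, and 12.3% and 30.4% with siHAND2. In the combined knockdown 17.4% and 50.1% of genes were. Medians of the kinases were 0.17, -0.11 and -0.26, beside 0.006, -0.14 and -0.28 over all genes. Under median ratio scaling the balance turned, with 7 higher and 4 lower with siHAND2 and 8 and 5 in the combined knockdown. Among all 12680 tested genes it turned too, with 3286 higher and 3153 lower with siHAND2. In the combined knockdown 4776 genes were then called higher and 4186 lower (37.7% and 33%). MAPK10 (JNK3), the neuronal JNK kinase, averaged 15.2 CPM in siCtrl, 38.4 with siMYCN, 45.4 with siHAND2 and 79.5 in the combined knockdown, with log2 changes of 1.28, 1.52 and 2.29 (adjusted p = 3.5e-14 for the last, limma). AURKB, a mitotic kinase, averaged 54.3, 39.0, 27.4 and 13.4 CPM in the same order and was called lower in all 3, at -1.96 in the combined knockdown (adjusted p = 3.8e-13, limma). CDK1, the mitotic kinase that phosphorylates STMN1, was at -0.24, -1.07 and -1.66, called in the last pair. MAPK8 (JNK1), which phosphorylates STMN2, was called higher with siMYCN (0.57) and in the combined knockdown (0.55). The remaining JNK, MAPK9 (JNK2), was called lower with siHAND2 (-0.31) and in the combined knockdown (-0.38, adjusted p = 0.0039, limma), and neither change was called after scaling (-0.16 and -0.04).

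Of the 11 tubulin genes 10 were tested, and near-identical copies make the split of reads among them uncertain. With siMYCN 5 were called higher and 0 lower, with siHAND2 3 and 3, and in the combined knockdown 5 and 4, beside the shares of all genes given above for the regulators. Their medians were 0.38, 0.15 and 0.16. Scaling gave 6 called higher and 3 lower with siHAND2, where 25.9% of all genes were called higher. It gave 5 and 3 in the combined knockdown, where 37.7% and 33% of all genes were called. The 5 higher in the combined knockdown were TUBA1A, TUBA1C, TUBB2A, TUBB2B and TUBB3, and the 4 lower were TUBA1B, TUBB, TUBB4B and TUBB6. TUBA1A changed by 1.47, 0.92 and 1.80 on the log2(CPM + 1) scale (adjusted p = 2.1e-11 for the last, limma). TUBB3, the beta tubulin of neurons, averaged 134 CPM in siCtrl, 249.3 with siMYCN, 273 with siHAND2 and 457 in the combined knockdown, where its change was 1.74 (adjusted p = 1.5e-11, limma).

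Of 7 other destabilisers 0 were called higher and 2 lower with siMYCN, 0 and 4 with siHAND2, and 0 and 6 in the combined knockdown, where 16.3%, 30.4% and 50.1% of all genes were called lower. Their medians were -0.06, -0.59 and -0.81, beside 0.006, -0.14 and -0.28 over all genes. After median ratio scaling the last count was 1 higher and 6 lower, where 37.7% and 33% of all genes were called. KIF2C, a kinesin that depolymerises microtubules in mitosis, was at -1.72 in the combined knockdown (adjusted p = 2.4e-11, limma), and FIGN, which severs microtubules, at -1.49 (adjusted p = 5.1e-09, limma). STMN2 and STMN4 stood at 5.01 and 4.01 in the same comparison.

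Of 11 stabilisers and assembly proteins 9 were called higher with siMYCN, 8 with siHAND2 and 9 in the combined knockdown, and 0 were called lower in any of them, where 17.4%, 12.3% and 17.4% of all genes were called higher. Their medians were 0.62, 0.47 and 0.88, beside 0.006, -0.14 and -0.28 over all genes. After scaling 10 were called higher in the combined knockdown, where 37.7% of all genes were. MAPT, the axonal protein tau, changed by 0.94, 1.51 and 2.28 (adjusted p = 6.2e-14 for the last, limma), and its row overlaps 5 short or antisense genes of low level. DCX, a microtubule-binding protein of migrating neurons, changed by 1.61, 1.76 and 2.12 (adjusted p = 4.8e-12 for the last, limma). The stabilisers MAPT and DCX and the neuronal destabilisers STMN2 and STMN4 were thus higher in the same samples. Changes against siCtrl in the 3 knockdowns share the control samples, and all lists were chosen with earlier results of these data known.

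**Figure D5:**
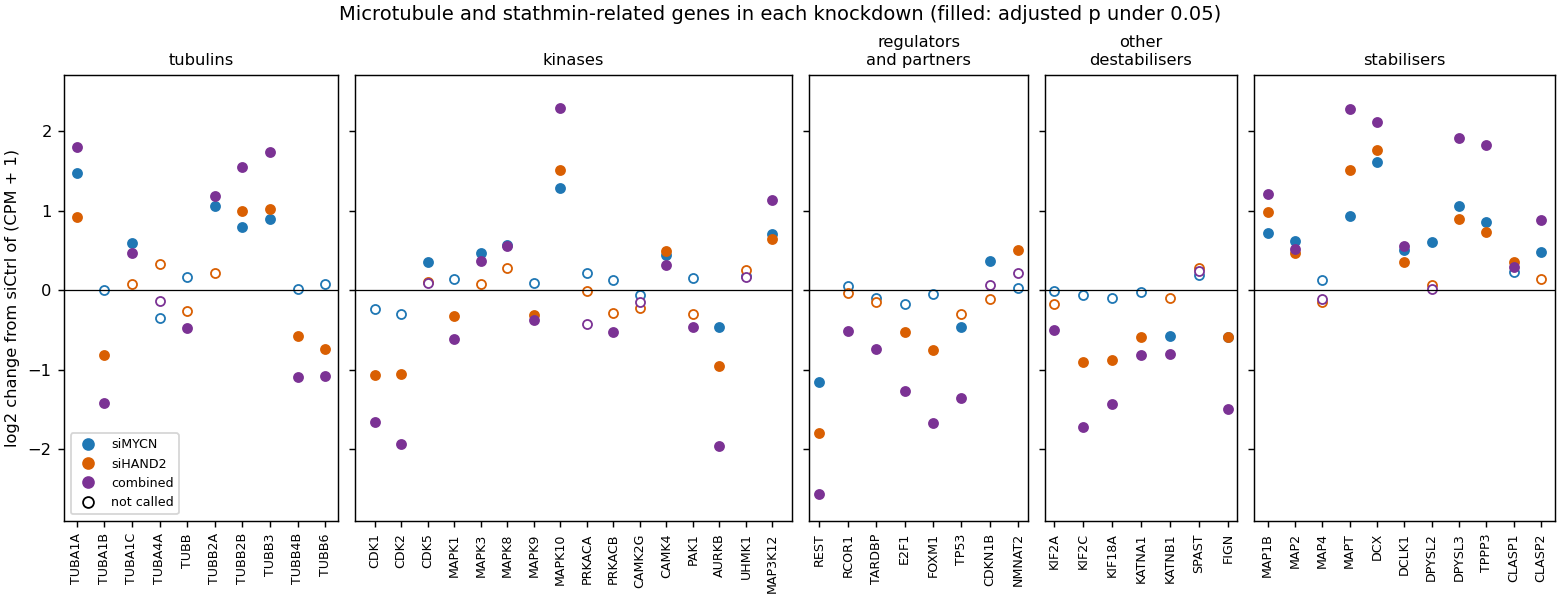
Fitted log2 change of CPM + 1 against siCtrl for the tested genes of the 5 lists, with 1 point for each knockdown, filled where the adjusted p was under 0.05. REST reaches -2.57 in the combined knockdown, and MAPK10, MAPT and DCX stand at 2.29, 2.28 and 2.12.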

How the data were processed

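RNA-seq was done on 12 samples of 1 cell line in 4 groups of 3, grouped by their labels. The authors deposited 1 table of CPM for 27514 genes, with hg19 (GRCh37) positions. STAR 2.5.1 and Partek are named in the submitters' processing notes, and the annotation and use of strand are not given in the sources used here. A constant of 0.0001 had been added to each deposited CPM value, and a value at it is called listed at 0. The worth of 1 read, and from it the depth, was taken from the finest spacing of low values. Allowing 0.05 reads either way, whole reads came out for 88.9 to 90.5% of the values under 20 reads, and for 80.3 to 81.6% of larger values up to 200 reads, so no count test was run.

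Values were analysed as log2(CPM + 1) with limma 3.58.1 in R 4.3.3 (lmFit, eBayes with trend, two-sided, Benjamini-Hochberg over 12680 genes with mean CPM of at least 1), with 1 fit of 4 groups and 7 contrasts. Called means adjusted p under 0.05. An exact permutation test of 3 against 3 samples cannot go below 0.1 and was not used. The procedure was tested on simulated data with known changes. Intervals of reads cover counting error only.

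The members and the lists were chosen with earlier results of these data known. Named are the 4 members, both targets, for each member the 3 genes of highest Pearson r among those with mean CPM of at least 5, for each list the 2 called genes of largest change in the combined knockdown, and REST, TARDBP, CDKN1B, CDK1, MAPK8 and E2F1. Other genes of a small count were named after their values were seen.

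Replicate numbers come from the sample titles. Running numbers in the column labels also group the samples of all 4 groups by replicate number, and what they stand for is not stated. Deviations of same-numbered samples from their group means correlated at 0.147 or more in every pair of siCtrl and siMYCN, and at 0.137 or more for siMYCN and siHAND2, so numbers were taken to pair these groups. The lowest correlation was -0.192 to -0.0218 for the other pairs of groups, which were not taken as paired. These correlations were of CPM as deposited, without scaling, and cannot decide whether the samples were paired by design. The main fit used no pairing for any groups. Alternatives were median ratio scaling, scaling to the listed sum, a replicate block alone or with scaling, a pseudocount of 0.1, a minimum mean of 5 or none, no trend, only the groups compared, and leaving out each sample.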

Additional observations from a re-analysis of the deposited data

Results flagged for a closer look

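The interaction term of STMN2 was -1.54 and that of STMN4 -1.40 on the log2(CPM + 1) scale, and both were called in limma. These genes were chosen for their rises in the same samples, so the calls are a description and support nothing. On this scale the added siRNA gave a smaller rise when the other siRNA was also present. For STMN2, siHAND2 raised the fitted value by 2.48 over siCtrl and by 0.94 over siMYCN. For STMN4 these rises were 2.69 and 1.29. In CPM the mean of both genes in the combined knockdown stood above the level that the sum of the single increases gives. With a pseudocount of 0.1 in place of 1 the terms were -1.79 for STMN2 and -1.97 for STMN4, so which is larger depends on the pseudocount. With no filter on low genes the terms were as in the main fit, and neither was called.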

How the results depend on the processing

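The number of genes called in the interaction, 508, became 779 with median ratio scaling, 795 with scaling to the listed sum, 88 with no filter, 1282 with the replicate block and 1262 with the block and scaling, and 263 to 4443 when 1 sample was left out (4443 without combined replicate 1). For siMYCN against siCtrl, 4273 became 6963 with only the groups compared and 6480 with the block and scaling. For siMYCN against siHAND2, 4443 became 6730 with only the groups compared. Stathmin genes called in the interaction went from 2 to 0 with no filter in limma, where 88 of 27514 genes were called. The 2 were STMN2 and STMN4, chosen on rises in these same samples, so nothing is read from either count.

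The replicate block alone changed no call of a stathmin gene. The block was taken as a paired analysis only for siCtrl with siMYCN (4926 genes called) and siMYCN with siHAND2 (5163). For groups not taken as paired it gave 6140 for siHAND2 and 8951 for the combined knockdown against siCtrl. It gave 8069 and 5839 for the combined knockdown against siMYCN and siHAND2.

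Signs turned in some small differences. The interaction of STMN1 became 0.15 with scaling, with or without the block, 0.11 with the listed sum and -0.13 to 0.034 leaving out 1 sample. STMN1 with siHAND2 against siCtrl was -0.011 to 0.10, and in the combined knockdown against siMYCN -0.081 to 0.082, leaving out 1 sample. STMN3 with siHAND2 against siCtrl became 0.12 with scaling, with or without the block, and 0.092 with the listed sum. In the combined knockdown against siCtrl it was -0.027 to 0.36 leaving out 1 sample. STMN4 with siMYCN against siHAND2 became -0.11 with scaling, with or without the block, -0.036 with the listed sum and -0.045 to 0.12 leaving out 1 sample.

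STMN1 with siHAND2 against siCtrl was called with the block and scaling (0.21), STMN1 in the combined knockdown against siCtrl was not called with only the groups compared, and STMN3 with siMYCN against siCtrl was not called with no filter. The causes were not tested. At 50 to 73 estimated reads, the siCtrl level of STMN4 limits the precision of its ratios.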
